A study of Gallus gallus with 28 samples.

Results

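PDHA2, IDH2 and MDH2, mitochondrial enzymes of pyruvate oxidation and the citrate cycle, were followed in livers of chickens (Gallus gallus) from a lean and a fat line. They were chosen by gene symbol in the annotation of a 2-colour cDNA array, where they stood at 7 of 576 printed positions, each position being 1 cDNA printed as 3 spots. MDH2 stood at 5 positions, with the cDNA BX256972 at 2 of them and the cDNA CT485812 at 3. IDH2 (CT485886) and PDHA2 (CT485958) had 1 position each. The samples were 10 pools of poly(A)+ liver RNA, each from 4 chickens: pools 1 to 5 of the lean line and pools 6 to 10 of the fat line. Pools 3 and 8 were hybridised on 2 arrays and every other pool on 3, so 28 arrays were used, and arrays of a pool were averaged so that n is 5 per line. The labels used here name no age, sex or diet, and do not say how the lines were bred.

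Pyruvate dehydrogenase turns pyruvate into acetyl-CoA in the mitochondrial matrix, where acetyl-CoA joins oxaloacetate to form citrate. In birds the liver is the main site of fatty acid synthesis, and citrate exported from mitochondria carries the acetyl groups for it to the cytosol. PDHA2 encodes an alpha subunit of the first component of pyruvate dehydrogenase. In mammals this name belongs to a testis form, while the chicken gene entry also carries the name PDHA1. IDH2 is the NADP-dependent isocitrate dehydrogenase of mitochondria, which makes 2-oxoglutarate and NADPH. MDH2, the mitochondrial malate dehydrogenase, closes the cycle by oxidising malate to oxaloacetate and also serves the malate-aspartate shuttle.

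Values are log ratios of a pool over a common reference that mixed all 10 pools, so 0 means the same level as the reference. They are read as log2, 1 unit being a doubling, from their range alone, and every fold given here rests on that reading. Each array carried a pool in Cy5, its first channel, and the reference in Cy3, so a ratio of pool over reference is the likely direction. The deposited values did not settle it, and every direction given here would turn if the ratio ran the other way. The lowest Pearson r between any of 378 pairs of arrays was -0.27. Arrays held values for 450 to 741 of their 1728 spots. At each member position 67 to 83 of 84 possible spot values were present, or 79.8% to 98.8%. The median was 17.3% over all positions and 79.8% over the positions tested, and PDHA2, the least complete member, stood at the latter. All 7 had values in every pool. IDH2 had no value on the third array of fat pool 10, and PDHA2 none on the third array of fat pool 7. Of 12 hepatocyte markers 6 were on the array and 5 had values, with ALB listed but without a value on any array. Of the markers of erythrocytes, leukocytes, stroma and adipocytes 0 were on the array. The 10 hepatocyte marker positions tested, of APOA1, APOB, FABP1, GC and AHSG, differed between the lines by -0.46 to 0.49 (median -0.18), with 3 higher in the fat line and 0 passing limma (0 also at an unadjusted p under 0.05, adjusted p from 0.610 to 0.984). The 1 marker of pancreas and intestine on the array, AMY1A, differed by -0.10 (standard error 0.18, limma adjusted p = 0.851). The part of cell makeup in the results below was not tested. In such bulk RNA, fewer cells of a type and less RNA per cell cannot be told apart. Pool 3 was the most dispersed, with an SD of 0.97 over the 297 positions tested, where the other pools lay between 0.41 and 0.50, and line differences that turn on it are also given without it.

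At the entry to the cycle, PDHA2 was 0.0044 in lean pool 1, -0.91 in pool 2, -0.48 in pool 3, -0.29 in pool 4 and 0.13 in pool 5. The fat pools lay close together, at -0.011 in pool 6, 0.21 in pool 7, -0.032 in pool 8, 0.056 in pool 9 and 0.077 in pool 10. All 5 fat pools lay above the lean mean, but the lines overlapped. Lean pool 5 lay above every fat pool but pool 7, and lean pool 1 lay slightly above fat pools 6 and 8. The means were -0.31 ± 0.41 in the lean and 0.059 ± 0.094 in the fat line (SD, n = 5 each). The difference, fat minus lean, was 0.37 (standard error 0.19, 1.29-fold with a 95% interval of 0.967 to 1.72). It did not pass the limma test (unadjusted p = 0.0775, Benjamini-Hochberg adjusted p = 0.575 over 297 positions). With single pools left out the difference ran from 0.22 (without pool 2) to 0.48 (without pool 5).

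Arrays of 1 pool did not all share the low PDHA2 values. In pool 2 the first array averaged -1.61 over 2 spots and the third -1.13 over 3 spots, while the second averaged 0.015. In pool 3 the first array averaged -0.055 and the second -0.91. In pool 4 the third array stood at -0.70 on 1 spot, against -0.17 and 0.0050 on the others. Differences between pools of the lean line did not pass against array error at this position (limma F test, unadjusted p = 0.0830, adjusted p = 0.362). Those between pools of the fat line did not pass either (limma F test, adjusted p = 0.787). Over all arrays the pooled SD between arrays of a pool was 0.36 for PDHA2. The lean SD exceeded the fat SD in 165 of all 297 positions, and for PDHA2 this difference in spread was not tested.

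**Figure D1:**
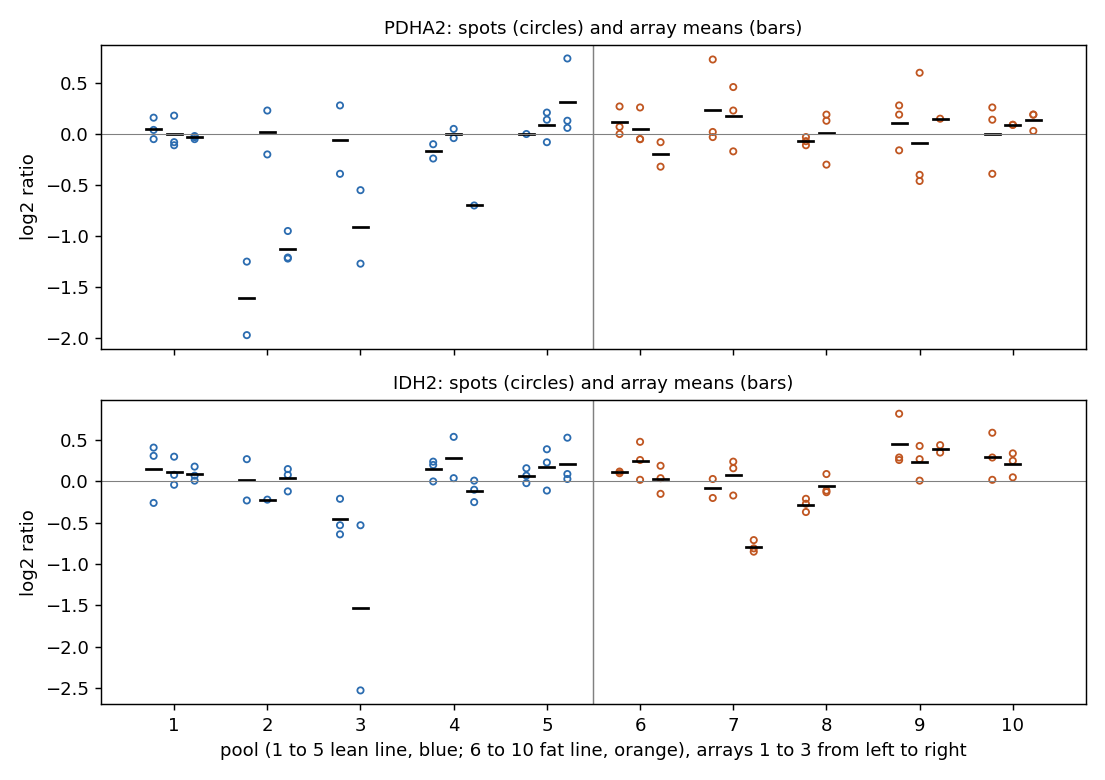
Log2 ratios of PDHA2 (top) and IDH2 (bottom) for each array, with pools on the horizontal axis, lean pools 1 to 5 in blue and fat pools 6 to 10 in orange. Circles are spots and bars are array means: the lowest PDHA2 arrays are in pool 2, next to an array of the same pool at 0.015, and the lowest IDH2 spot (-2.53) is in pool 3.

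IDH2, which makes mitochondrial NADPH, was close to the reference in most pools. Its lean values were 0.12 in pool 1, -0.054 in pool 2, -0.995 in pool 3, 0.11 in pool 4 and 0.15 in pool 5. In the fat line they were 0.13 in pool 6, -0.27 in pool 7, -0.17 in pool 8, 0.36 in pool 9 and 0.26 in pool 10. Pool 3 stood alone at the bottom, and the other lean pools lay inside the range of the fat pools. The means of -0.13 ± 0.49 in the lean and 0.063 ± 0.27 in the fat line (SD, n = 5 each) differed by 0.20 (standard error 0.24, 95% interval -0.32 to 0.72, limma adjusted p = 0.756). Without pool 3 the difference was -0.018, so its sign rested on that pool, and without pool 9 it was 0.12. Both arrays of pool 3 were low, at -0.46 over 3 spots and -1.53 over 2 spots of -2.53 and -0.53. The third array of fat pool 7 was also low, at -0.79 with 3 spots between -0.85 and -0.71, while the other arrays of that pool stood at -0.085 and 0.077. Between lean pools IDH2 had an unadjusted limma F test p of 0.00594, which did not pass after adjustment (adjusted p = 0.112). Unadjusted p-values under 0.05 were reached by 15.9% of the 189 positions tested between lean pools and by 22.8% of the 202 tested between fat pools, and adjusted ones by 0.529% (1 position) and 0%.

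MDH2, the last enzyme of the cycle, was measured with 2 cDNAs. At the first position of BX256972 the lean pools 1 to 5 stood at 0.026, -0.42, -0.70, -0.11 and 0.15, and the fat pools 6 to 10 at -0.051, -0.090, 0.77, 0.77 and 0.13. At its second position the lean pools stood at 0.0022, -0.21, -0.45, -0.023 and -0.12, and the fat pools at -0.12, 0.032, 0.55, 0.46 and 0.14. Both positions were lowest in lean pool 3 and highest in fat pools 8 and 9, all 5 fat pools lay above the lean mean at each, and the lines overlapped through fat pools 6, 7 and 10 at the first, all below lean pool 5, and through pool 6 at the second. The first position averaged -0.21 ± 0.35 in the lean and 0.31 ± 0.43 in the fat line (SD, n = 5 each), and the fat line was higher by 0.52 (standard error 0.23) or 1.43-fold (95% interval 1.00 to 2.05). For the second the averages were -0.16 ± 0.18 and 0.21 ± 0.29 (SD, n = 5 each), and the fat line was higher by 0.37 (standard error 0.16) or 1.29-fold (95% interval 1.01 to 1.65). Neither passed the limma test (adjusted p = 0.524 and 0.496, unadjusted p = 0.04997 and 0.0401). Without pool 3 the differences were 0.40 and 0.30 (limma, unadjusted p = 0.114 and 0.0885, adjusted p = 0.616 for both). Single arrays of the first position averaged 0.24 and 1.3 in pool 8, and 0.49, 1.42 and 0.41 in pool 9. In pool 7 they averaged 0.65, -0.88 and -0.04, and in pool 3 -0.43 and -0.97. At the second position the arrays averaged 0.45 and 0.65 in pool 8, and 0.53, 0.55 and 0.31 in pool 9. In pool 3 they averaged -0.11 and -0.79 there, so the low of that pool came mostly from its second array. That array read lower than the first of pool 3 at every member position but the third of CT485812.

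CT485812 showed no common direction over its 3 positions. At the first the lean pools 1 to 5 were at 0.046, -0.25, 0.035, 0.077 and 0.29 and the fat pools 6 to 10 at 0.018, 0.32, 0.33, 0.024 and -0.094. At the second the lean pools were at -0.0033, -0.15, 0.92, 0.16 and 0.44 and the fat pools at 0.020, -0.26, 0.099, -0.44 and 0.096. At the third the lean pools were at -0.048, -0.30, -0.087, -0.090 and 0.20 and the fat pools at 0.061, 0.21, 0.30, 0.29 and 0.053. The second position was thus highest in lean pool 3, where BX256972 was lowest, and lowest in fat pool 9, where BX256972 was high. At the third, all 5 fat pools were above 0 and 4 of 5 lean pools below it, with lean pool 5 as the exception. The lines overlapped at all 3 positions. Differences were 0.081 (standard error 0.14) at the first, -0.37 (standard error 0.21) at the second and 0.25 (standard error 0.12) at the third, with limma adjusted p-values of 0.851, 0.631 and 0.530. Without pool 3 the second position was at -0.21, and without pool 2 at -0.48. At the first, the difference ranged from 0.0084 (without pool 2) to 0.14 (without pool 5), while leaving out pool 7 gave 0.030, pool 8 gave 0.028 and pool 10 gave 0.13. Some values of the second position rest on few spots: pool 3 had 2 spots on its first array (1.54 and 0.93) and 1 on its second (0.60), and the low array of pool 9 was 1 spot at -1.21.

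**Figure D2:**
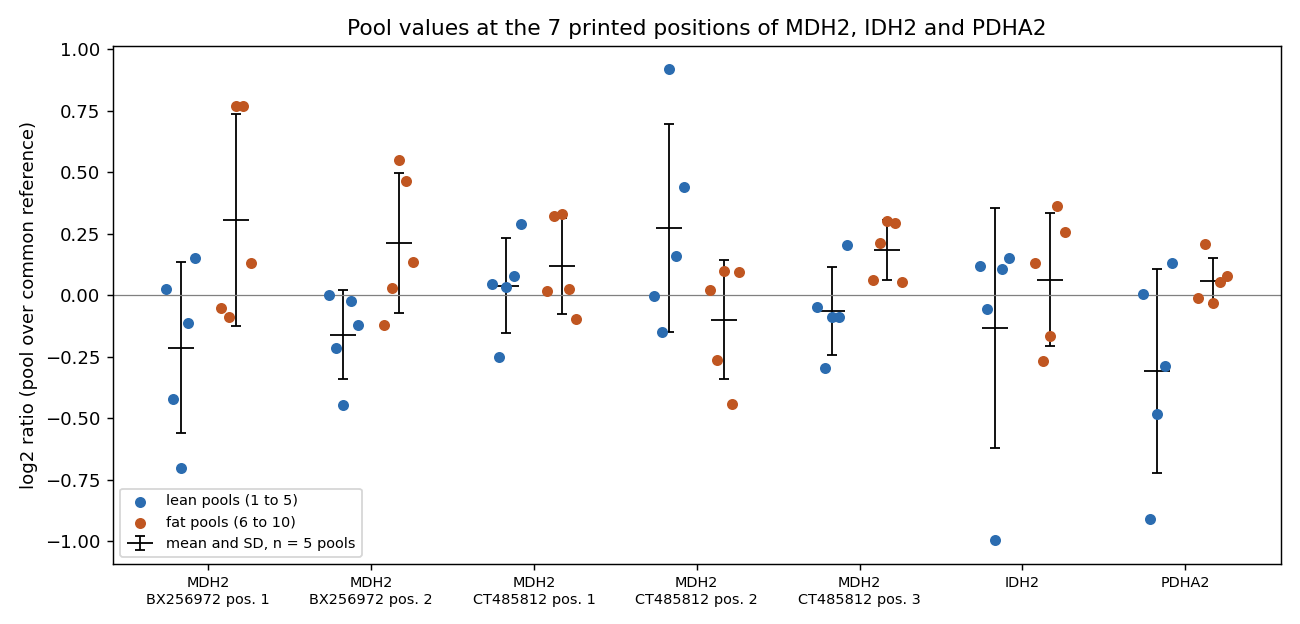
Log2 ratio of each pool over the common reference (vertical axis) at the 7 printed positions, lean pools in blue and fat pools in orange, with the mean and SD of 5 pools. The lines overlap at every position, and the second CT485812 position of MDH2 is the only one of the 7 whose fat mean (-0.098) lies below its lean mean (0.27).

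Across all members, 0 of 7 positions passed the limma test at an adjusted p under 0.05, as did 0 of 297 positions on the array (0%). At an unadjusted p under 0.05 there were 2 of 7, both BX256972 positions of MDH2 and both higher in the fat line, where 28 of the 297 positions (9.43%) reached it, 5.05% higher and 4.38% lower in the fat line. The members' count fell to 0 without pool 3, 8, 9 or 10, with medians over spots, with quantile normalization and with the second array of each pool. Over all tested positions the counts in these settings were 25, 18, 26, 26, 28, 25 and 30, in the same order. The members' count rose to 3 of 7 without pool 1, with both BX256972 positions and PDHA2, where the array count was 30. Without pool 5 it was also 3, with BX256972 position 1, CT485812 position 3 and PDHA2, where the array count was 27. In a fit with a replicate block for array number it was 3, with BX256972 position 2 and CT485812 positions 2 and 3. The array count in that fit rose as well, to 37. The number of positions tested can differ between settings. Without pool 2 neither BX256972 position reached an unadjusted p under 0.05 (limma p = 0.0975 and 0.0691). CT485812 position 2, lower in the fat line, did so without pool 2 (unadjusted limma p = 0.0465), where the array count was 26. Without pool 8 the count over the array was 18 in place of 28. With exact two-sided permutation of the 10 pools, the second BX256972 position gave p = 0.0397 and the third CT485812 position p = 0.0476, where the smallest possible is 0.00794. After Benjamini-Hochberg adjustment both exact permutation p-values were 0.416. Over all tested positions, 34 had an exact permutation p under 0.05 and 0 passed after adjustment. With 0.00794 as the smallest possible p, a position could pass after adjustment over 297 only if many positions reached that value together. No conclusion is drawn from this 0. The other exact p-values were 0.0952 for the first BX256972 position, 0.103 for PDHA2, 0.119 for the second CT485812 position, 0.540 for IDH2 and 0.548 for the first CT485812 position. Positive differences were seen at 6 of 7 positions, against 54.9% of all tested positions. The median size of a difference, sign ignored, was 0.37 over the members and 0.19 over all tested positions. Positions of one gene share their RNA and are not independent, so these counts are descriptions. The lines separated at 0 of 7 positions, where 6 of the 232 positions with all pools (2.59%) did.

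**Figure D3:**
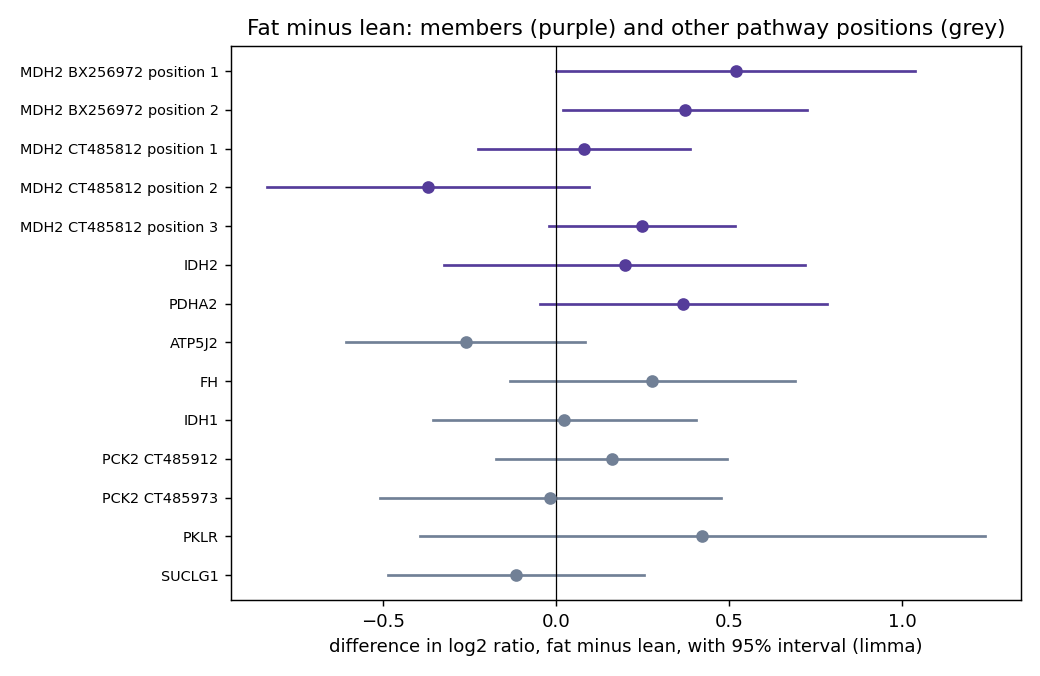
Difference in log2 ratio, fat minus lean, with its 95% interval from limma (horizontal axis) for the 7 member positions in purple and 7 positions of other pathway genes in grey. Intervals of the MDH2 cDNA BX256972 lie just above 0 before any adjustment for 297 tests, and the other 12 include 0.

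Agreement between positions of MDH2 was examined over the 10 pools for all 10 pairs of positions. Pearson r ran from -0.59 to 0.95 with a median of 0.37, or 0.23 without pool 2 and 0.15 without pool 8. The closest pair was the 2 positions of BX256972 (r = 0.95, permutation p = 1.2e-04, adjusted p = 0.0012 over the 10 pairs, Spearman rho = 0.78, permutation p = 0.0107, adjusted p = 0.0534). Their r was 0.93 after subtracting the mean of each line and 0.85 without the 2 pools farthest from the median. In each pair of this paragraph, that median was of 1 position only, the first of the pair in the order BX256972, then CT485812. Across the 2 cDNAs, the first position of BX256972 followed the third of CT485812 (r = 0.80, permutation p = 0.00477, adjusted p = 0.0238, rho = 0.79, permutation p = 0.00884, adjusted p = 0.0534). Its r was 0.67 with line means subtracted and 0.62 without the 2 farthest pools. Within CT485812, the first and the third position had r = 0.75 (permutation p = 0.0136, adjusted p = 0.0453, rho = 0.53, permutation p = 0.123, adjusted p = 0.307). That r was 0.82 with line means subtracted and 0.44 without the 2 farthest pools. The second BX256972 position and the third of CT485812 had r = 0.71 (permutation p = 0.0207, adjusted p = 0.0518, rho = 0.72, permutation p = 0.0233, adjusted p = 0.0777), with 0.49 after subtracting line means and 0.41 without the 2 farthest pools. The first CT485812 position had r = 0.40 (permutation p = 0.250, adjusted p = 0.358, rho = 0.25) with the first BX256972 position and 0.34 (permutation p = 0.347, adjusted p = 0.433, rho = 0.38) with the second. Without pool 8 these were 0.19 and 0.064.

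The second CT485812 position gave the 3 negative r. It had r = 0.11 (rho = 0.26) with the first and -0.24 (rho = -0.24) with the third position of the same cDNA, and -0.51 (rho = -0.22) and -0.59 (rho = -0.37) with the 2 positions of BX256972. With line means subtracted these 4 values were 0.27, 0.16, -0.30 and -0.40, and without the 2 farthest pools they were -0.036, 0.28, -0.44 and -0.68. The 2 pools were chosen by the other position of the pair, except for the second value. Pool 3 thus stayed in for -0.036, -0.44 and -0.68. Without pool 3, where the second CT485812 position was highest, the 4 values were 0.27, -0.064, -0.14 and -0.31. The first of them was also below 0 without pool 2 (-0.038) or pool 5 (-0.025), and the second was -0.52 without pool 2 and -0.047 without pool 9. The permutation p-values of these r lay between 0.0720 and 0.777 and those of rho between 0.297 and 0.540, and the adjusted ones between 0.144 and 0.777. By Pearson r 3 of the 10 pairs passed after adjustment and by Spearman rho 0 did. Over the 28 arrays taken singly, the pairs had r between -0.26 and 0.60, and the 2 BX256972 positions had r = 0.44, as a description, since arrays of a pool share RNA. An example is the third array of lean pool 2, where the 3 spots of the first BX256972 position read -1.18, -1.29 and -1.21 and those of the second read 0.04, -0.16 and 0.83. Elsewhere on the array, 23 pairs of positions printed with the same cDNA, from 15 other genes, had a median r of 0.52 over the pools, from -0.66 to 0.97, with 7 below 0 and 6 whose line differences had opposite signs. The median gap between 2 positions of a pair within a pool was 0.28 log2 units for these and 0.17 for the 4 MDH2 pairs of the same cDNA. It was 0.22 for the 6 MDH2 pairs of different cDNAs.

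**Figure D4:**
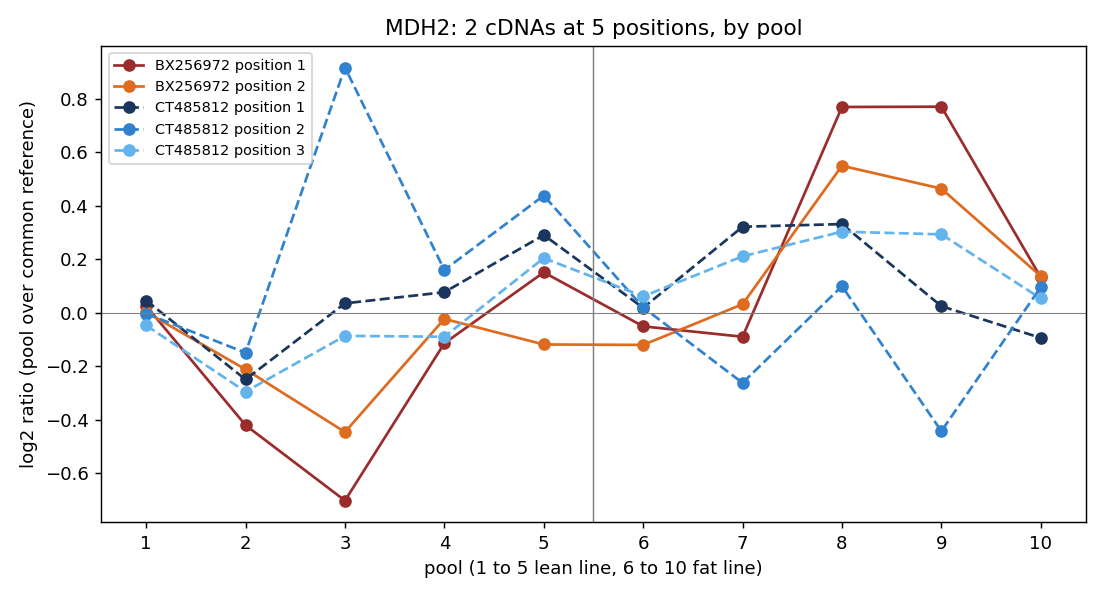
Log2 ratio (vertical axis) at the 5 MDH2 positions in each pool (horizontal axis), BX256972 as solid and CT485812 as dashed lines. The 2 solid lines run together, lowest in lean pool 3 and highest in fat pools 8 and 9, while the second CT485812 position peaks at 0.92 in pool 3 and is lowest in pool 9.

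Whether positions of MDH2 gave different line differences was tested on the difference between 2 positions within each pool, by exact two-sided permutation of the pools. The largest contrast was between the first BX256972 and the second CT485812 position, whose line differences were 0.89 apart (exact p = 0.0159, adjusted p = 0.0794 over 10 pairs). Within CT485812, the second and the third position were 0.62 apart (exact p = 0.00794, the smallest possible, adjusted p = 0.0794), and the first and the third 0.17 apart (exact p = 0.0476, adjusted p = 0.119). The second BX256972 and the second CT485812 position were 0.74 apart (exact p = 0.0317, adjusted p = 0.106). Of the 10 pairs, 4 had an unadjusted exact p under 0.05 and 0 passed after adjustment. A pair alone at the smallest possible p has an adjusted p of 0.0794 over 10 pairs and cannot pass. This 0 therefore does not show that the positions gave equal line differences. Averaged per cDNA, BX256972 differed between the lines by 0.45 (standard error 0.20, 95% interval 0.0080 to 0.88, limma adjusted p = 0.550 over 127 cDNAs) and CT485812 by -0.014 (standard error 0.14, 95% interval -0.32 to 0.29, limma adjusted p = 0.986), an average added after the values were seen. The sign of CT485812 was not settled, since leaving out pool 3 gave 0.037, pool 5 gave 0.043 and pool 9 gave 0.014. BX256972 minus CT485812 averaged -0.27 ± 0.35 over lean and 0.19 ± 0.34 over fat pools (SD, n = 5 each). The gap of 0.46 between the lines did not pass (exact permutation p = 0.0794). With each pool left out in turn the gap lay between 0.31 (without pool 3) and 0.54. With all 5 positions averaged, MDH2 differed by 0.17 (standard error 0.13, 95% interval -0.12 to 0.46, limma adjusted p = 0.692 over 110 genes). That average differed by 0.11 without pool 2, 0.10 without pool 8 and 0.22 without pool 5.

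**Figure D5:**
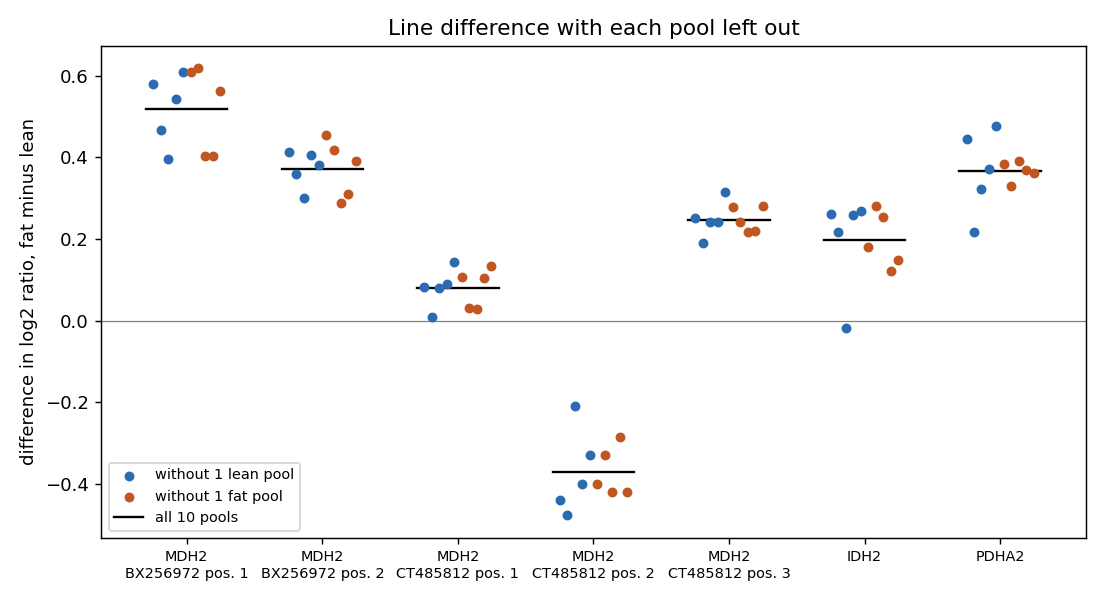
Difference in log2 ratio, fat minus lean (vertical axis), at each member position with all 10 pools (black lines) and with 1 pool left out (blue for a lean and orange for a fat pool). Only IDH2 crosses 0, at -0.018 without pool 3, while the first BX256972 position stays between 0.40 and 0.62.

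Spread was computed at 3 levels, without separating them, so that the SD between pool means still holds the error of arrays and spots. At the first BX256972 position the SD was 0.42 between spots of an array, 0.51 between arrays of a pool and 0.39 between pool means of a line. At the third CT485812 position, the most complete of the 7 with 83 of 84 spot values, these were 0.33, 0.22 and 0.15. Medians over the 297 positions tested were 0.33, 0.38 and 0.32. The second BX256972 position was the only one of the 7 with an unadjusted F test p under 0.05 between fat pools (limma F test, p = 0.0112, adjusted p = 0.163). Of all 202 positions tested between fat pools, 22.8% reached it. Between lean pools the second CT485812 position and IDH2 did (limma F test, p = 0.00761, adjusted p = 0.120 for the former), as did 15.9% of all 189 positions tested.

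Of 62 other genes listed for pyruvate metabolism, the citrate cycle, its shuttles and oxidative phosphorylation, 8 were on the array, and 6 of these had a position that could be tested, 7 positions in all. In limma 0 of the 7 passed, in either direction, and 0 reached an unadjusted p under 0.05, against 0% and 9.43% of all 297 positions. FH, fumarase, which supplies the malate that MDH2 oxidises, ranged from -0.51 to 0.37 in the lean and from 0.041 to 0.63 in the fat pools. For FH the lines were 0.28 apart (standard error 0.19, limma adjusted p = 0.656), or 0.17 without pool 4, 0.18 without pool 8 and 0.39 without pool 3. SUCLG1, the alpha subunit of succinyl-CoA ligase, differed by -0.12 (standard error 0.17), while leaving out pool 1 gave -0.21, pool 3 gave -0.029, pool 6 gave -0.19 and pool 10 gave -0.048. IDH1, the cytosolic counterpart of IDH2, differed by 0.023 (standard error 0.17) and had no settled sign, at -0.083 without pool 9 and -0.049 without pool 3. PCK2, the mitochondrial phosphoenolpyruvate carboxykinase that draws oxaloacetate from the cycle, gave 0.16 (standard error 0.15) with one cDNA (CT485912) and -0.017 (standard error 0.22) with the other (CT485973), whose sign was not settled. The first was 0.11 without pool 6 and 0.24 without pool 8. PKLR, the pyruvate kinase of liver and red cells, had values in 3 lean and 5 fat pools. It differed by 0.42 (standard error 0.36), or 0.27 without pool 6 and 0.58 without pool 8. ATP5J2, a subunit of ATP synthase, differed by -0.26 (standard error 0.16), or -0.16 without pool 6 and -0.34 without pool 10. The adjusted limma p-values of these 7 positions lay between 0.631 and 0.988. PDK1 and PDK3, kinases that switch pyruvate dehydrogenase off, were on the array with too few values to test, and are named outside the rule for named genes, after their values were seen: PDK1 had 1 spot value, in pool 4 (1.11), and PDK3 had 7, giving -0.54 and -0.10 in lean pools 2 and 4 and 1.12, 0.38 and 3.09 in fat pools 6, 8 and 9.

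The named genes whose pool values were most like each member were listed by Pearson r over the 10 pools, among the 77 other named genes with a value in every pool, as a description. For MDH2, averaged over its positions, these were FADS2, a fatty acid desaturase (r = 0.83), ATP6V0C, a subunit of the vacuolar proton pump (r = 0.76), and ACACA, acetyl-CoA carboxylase (r = 0.75). For PDHA2 they were ATP6V0C (r = 0.77), the nuclear receptor NR2F2 (r = 0.70) and SNX1, a sorting nexin (r = 0.66). HMGCS1, the cytosolic HMG-CoA synthase (r = 0.74), ACAT1, the mitochondrial acetoacetyl-CoA thiolase (r = 0.71), and CPT2, a carnitine palmitoyltransferase (r = 0.70), were nearest to IDH2. Without pool 3 these IDH2 values were 0.49, 0.57 and 0.21 in the same order. For the MDH2 and PDHA2 genes, r stayed between 0.51 and 0.88 with each pool left out in turn. The median r over the 77 genes was 0.074 for MDH2, 0.053 for PDHA2 and 0.068 for IDH2. These values are the highest of 77 and share pools, arrays and the reference.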

How the data were processed

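The authors deposited 1 log ratio per spot and array, taken here as log2. Poly(A)+ RNA came from pooled total RNA of 4 birds, per the labels' protocols, and was labelled with Cy5, the reference with Cy3, on all arrays alike. Neither scanner, background correction, spot filter nor normalization is stated in these sources. The base is not stated: values up to 14.01 would, as natural or base-10 logs, be ratios beyond the range of common scanners, which makes base 2 likely but does not prove it, and array medians lay between -0.06 and 0.07. Missing values were left missing.

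The 3 spots of a position (same block and column, rows 3 apart, 1 cDNA accession) were averaged, then arrays of a pool. A position entered the test if at least 3 lean and 3 fat pools had a value (297 did). The two-sided test was lmFit and eBayes of limma 3.58.1 (R 4.3.3), with Benjamini-Hochberg adjustment over these positions. Its code was run on simulated pools whose added differences were larger than that of any member. Its power for differences of the members' size was not tested. For differences between pools within a line, arrays entered an F test of limma, for positions with at least 2 arrays of every pool. Correlations used 100000 permutations. P-values of the main tests between lines rest on the spread between pools, and the number of pools, 5 per line, limits the precision. Those of the F tests within a line rest on the spread between arrays of a pool. Those of r and rho come from permuting the pools of 1 position against another, and such positions share RNA and arrays. The labels do not say how birds were assigned to pools. Gene names come from the platform annotation, checked by gene ID against the GRCg7b gene table. No build is named in the files, so no coordinates are given. The named genes were all member positions, the 3 most similar genes of each member and every pathway gene with a tested position. Members and lists were chosen with earlier results of these data known. Averages per MDH2 cDNA, and correlations with single pools left out, were added after the data were seen. Alternatives left out each pool or changed the filter, spot average, normalization, arrays used or test.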

Additional observations from a re-analysis of the deposited data

Results flagged for a closer look

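In 2 of 27 groups of pools examined (each of 1 position and 1 line), 1 pool stood far from the rest of its line by Dixon's criterion, which chance meets in about 1 of 20 groups, so that a count of this size is near what chance gives. For IDH2 in the lean line, pool 3 was at -0.995 while the other lean pools lay between -0.054 and 0.15, and the gap was 0.820 of the whole range (critical value 0.71). For the PCK2 cDNA CT485973 in the fat line, pool 8 was at 0.88 while the other fat pools lay between -0.11 and 0.10, a gap of 0.784 of the range.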

How the results depend on the processing

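Over 154 recomputed values of the 7 member positions, 0 passed at an adjusted p under 0.05 (smallest limma adjusted p = 0.204, for the first BX256972 position with the first array of each pool) and 1 changed sign: IDH2 ran from -0.018 to 0.28 with single pools left out. No other member position changed sign in any alternative, and MDH2 averaged over its positions stayed between 0.10 and 0.30. Some of the 154 values could not change sign. The filters on the number of pools, the removal of spots beyond 5 and the exact permutation left the difference of every member as it was. After adjustment the exact permutation could hardly pass at any position, so its 7 values add little to the 0 that passed. Some values moved by over 1.5 times. With the second array of each pool only, PDHA2 was at 0.21, IDH2 at 0.38, the second CT485812 position at -0.074 and MDH2 averaged at 0.297, and with the first array only IDH2 was at 0.11. Quantile normalization gave 0.091 for IDH2 and 0.045 for the first CT485812 position, and medians over spots gave 0.15 for the third. IDH2 was at 0.12 without pool 9. The count of positions called on the array was 5 with arrays as observations and 6 in a fit with a replicate block for array number, none of them a member. In the block fit the members lay between -0.35 and 0.47. The labels give the array numbers as replicate numbers only, and whether they mark a batch was not tested. As a description, arrays of different pools with the same number had a mean r of -0.042 and those with different numbers -0.058, after subtracting line means. The count at an unadjusted p under 0.05 was 18 to 30 with single pools left out (28 with all), the lowest without pool 8.

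Among the other genes, IDH1 turned to -0.012 with medians over spots, -0.047 with quantile normalization, -0.014 with the second array only, -0.015 with arrays as observations and -0.014 with the block, and ran from -0.083 to 0.12 with single pools left out. PCK2 turned to -0.0073 with the first array only (CT485912), and for CT485973 to 0.13 with at least 2 of 3 spots, 0.025 with quantile normalization, 0.15 with the first array only, 0.0016 with arrays as observations and 0.012 with the block, from -0.19 to 0.089 with single pools left out. ATP5J2 was at -0.71 with the first and -0.0090 with the second array only, SUCLG1 at -0.55 and -0.033, and FH at 0.15 with the first array only. Medians over spots gave -0.067 for SUCLG1. The MDH2 cDNA CT485812 turned to 0.13 with the second array only and ran from -0.093 to 0.043 with single pools left out. The median r between MDH2 positions lay between 0.14 (first array only) and 0.51. Positions whose lean pools differed numbered 1, or 2 with at least 1 array of every pool. Cause was not tested for any of these shifts.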
